A study of Homo sapiens with 54 samples.

Results

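Untreated SUM1315 cells were compared with untreated MDA-MB-468 cells, 3 libraries of each, which are 6 of the 54 libraries of the series. Both are established triple-negative breast cancer (TNBC) lines, which lack estrogen receptor, progesterone receptor and HER2. The labels give SUM1315 as BRCA1 mutant and MDA-MB-468 as BRCA1 wild type. Both lines were the parental cells, grown in the same DMEM/F12 medium with fetal bovine serum, and neither group received olaparib (a PARP inhibitor) or cisplatin (a platinum drug that crosslinks DNA). The other 48 libraries hold the same lines after these drugs, or as derivatives kept in olaparib (OlaR), and serve here only to show whether a level was stable within a line. Members were taken by title: every library titled as a control of SUM1315 or of MDA-MB-468.

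Each BRCA1 status is represented by 1 line, so that BRCA1 status and every other difference between these lines cannot be told apart. The study pooled libraries in batches of 27 for sequencing, and which libraries shared a batch is not given in the sources used here. If the 27 libraries of each line formed a batch, line and batch cannot be told apart either. For this reason the description rests on differences of at least 8-fold. The labels do not say whether the replicates were separate cultures, and p-values then measure only the spread between these libraries, which may be technical.

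RNA was counted by 3′ tag sequencing, in which each transcript gives reads near its poly(A) end whatever its length. Values are adjusted read counts, the reads of a gene after the authors had set the libraries to a common size. Differences are log2 (SUM1315 minus MDA-MB-468) of the adjusted read count plus 1, with the standard error (SE) of the fit. Where a line had no read of a gene, the difference is given as a lower limit of the fold, computed against 3 reads over the 3 libraries of that line. With 1 to 3 reads in a line the ratio of reads is given with its exact interval, which covers counting error only. The 6 libraries held 5737314 to 7568367 reads. In bulk RNA, fewer cells that express a gene and less RNA per cell cannot be told apart.

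Of 27470 genes in the table, 12882 were tested, those where 3 or more of the 6 libraries held an adjusted read count of 10 or higher, and 6410 had no read in any of the 6. Because a gene silent in 1 line could enter only through the other line, the counts below describe these libraries and are not evidence for any list. At an adjusted p of at most 0.05 (limma, Benjamini-Hochberg), 9323 genes (72.4%) differed. At this limit and at least 2-fold higher were 2859 genes in SUM1315 (22.2% of those tested) and 2954 in MDA-MB-468 (22.9%), 5813 in all (45.1%). At least 8-fold apart, with no overlap between the lines, were 1128 genes higher in SUM1315 (8.76%) and 913 higher in MDA-MB-468 (7.09%), together 15.8%. The median difference over all genes tested was -0.0258.

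Among the 8-fold genes higher in SUM1315, 365 had no read at all in the 3 MDA-MB-468 libraries, and among those higher in MDA-MB-468, 175 had none in SUM1315. Over all genes tested, the 27 SUM1315 libraries of the series all lay above the 27 MDA-MB-468 libraries for 1648 genes (12.8%) and all below for 1607 (12.5%). Of the 8-fold genes, 838 of 1128 and 730 of 913 were apart in this way in all 54 libraries. Replicates of a line correlated at r of 0.973 to 0.987 across genes and libraries of different lines at 0.533 to 0.546. SUM1315 replicate 3 stood somewhat apart from the other two of its line. Without it the counts were 2836 and 2862 at 2-fold and 1123 and 905 at 8-fold.

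**Figure D1:**
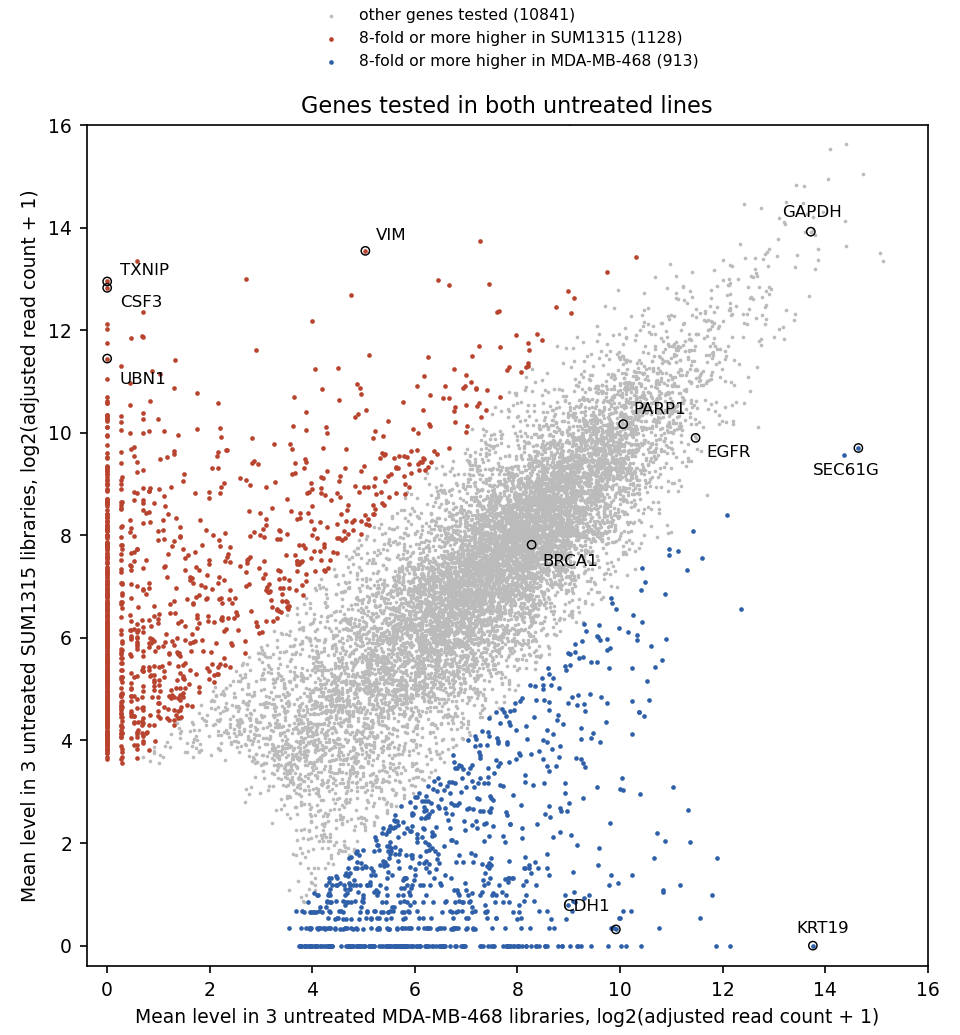
Mean level of each of the 12882 genes tested in the 3 untreated MDA-MB-468 libraries (x axis) and the 3 untreated SUM1315 libraries (y axis), both as log2(adjusted read count + 1). Red points are the 1128 genes at least 8-fold higher in SUM1315, blue points the 913 higher in MDA-MB-468 and gray points the rest. Many colored points lie on an axis at 0, where a line had no read, such as KRT19 for SUM1315 and TXNIP, CSF3 and UBN1 for MDA-MB-468.

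Breast epithelium has an inner luminal layer and an outer basal layer, held together by E-cadherin junctions, tight junctions and keratin filaments. Cancer cells can lose this program and take on mesenchymal genes (vimentin, N-cadherin, matrix proteins), with the repressors ZEB1, ZEB2 and SNAI2 known to silence epithelial promoters. TNBC lines range from epithelial-looking to mesenchymal-looking cells. MDA-MB-468 is known for amplification of EGFR and for loss of RB1 and SMAD4. These are background facts and not results of these libraries.

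The triple-negative label was checked first. PGR, the progesterone receptor, had 6 reads in SUM1315 and 0 in MDA-MB-468 and was below the filter. ERBB2, which encodes HER2, read 29.02, 21.7 and 16.6 in SUM1315 and 24.9, 34.4 and 37.1 in MDA-MB-468, and the overlapping values did not pass the test (adjusted p = 0.14). ESR1, the estrogen receptor gene, read 2.4, 6.3 and 25.6 in SUM1315 and 58.7, 74.4 and 57.2 in MDA-MB-468 (difference -2.88 ± 0.66, adjusted p = 0.0041). Every MDA-MB-468 library was above every SUM1315 library, and the SUM1315 values were spread widely.

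Of 24 markers of blood, endothelial, liver, muscle, melanocyte, nerve and fat cells, 22 were below the filter, and the blood cell marker PTPRC had 10 reads in SUM1315 and 0 in MDA-MB-468. HBB, the blood marker hemoglobin β, had no read in the 6 libraries, ALB, of liver, had 4 reads in SUM1315 and MLANA, of melanocytes, 20, both with none in MDA-MB-468. The other two passed the filter and were called in opposite directions. PECAM1, an endothelial adhesion molecule, read 124, 118 and 194 in SUM1315 and 6.4, 14.9 and 10.2 in MDA-MB-468 (difference 3.71 ± 0.34, adjusted p = 1.9e-05). Its endothelial companions CDH5 and VWF had 1 and 3 reads in SUM1315. MBP, named for myelin, read 10.9, 11.3 and 4.2 in SUM1315 and 253, 322 and 274 in MDA-MB-468 (difference -4.95 ± 0.35, adjusted p = 4.0e-06).

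**Figure D2:**
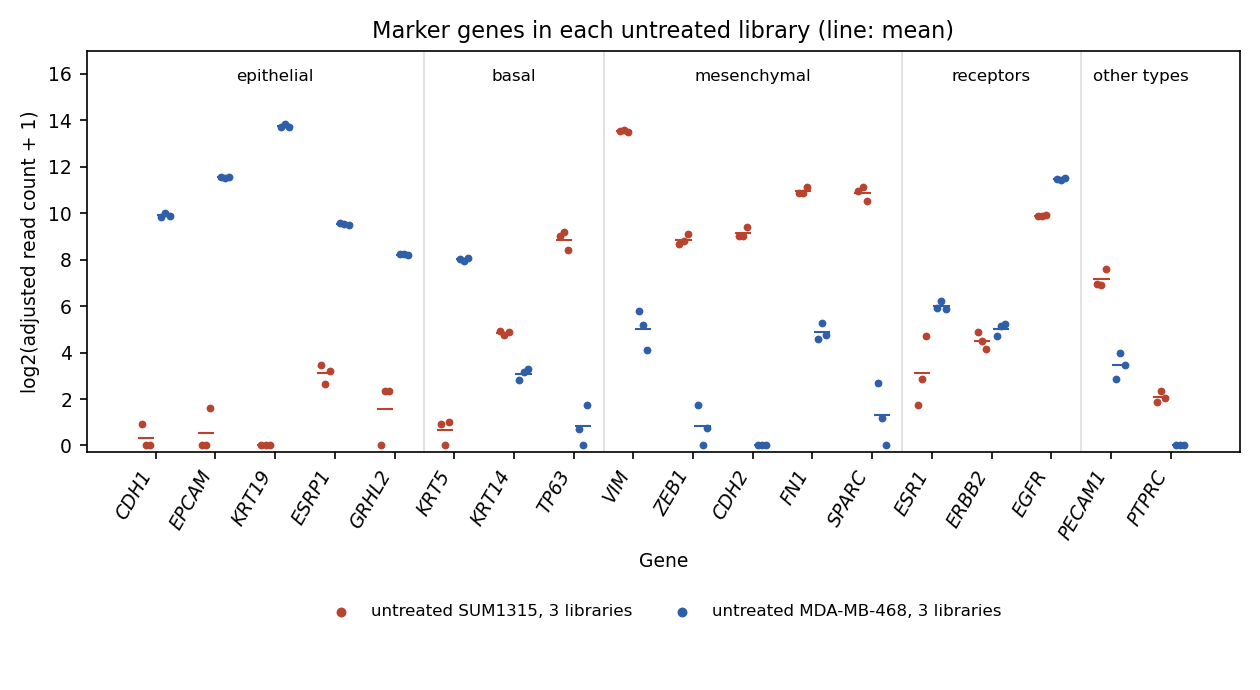
Marker genes in each of the 6 untreated libraries as log2(adjusted read count + 1), with 3 red points for SUM1315 and 3 blue points for MDA-MB-468 and a short line at each mean. The epithelial genes shown were high in MDA-MB-468 and low or at 0 in SUM1315, and the mesenchymal genes shown were the reverse. KRT8 and KRT18, the latter apart by less than 2-fold, are not shown. The basal markers were divided, with KRT5 high in MDA-MB-468 and TP63 high in SUM1315.

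Epithelial junction genes were abundant in MDA-MB-468 and nearly absent from SUM1315. CDH1, which encodes E-cadherin (chr16:68737292-68835537), read 925, 1045 and 936 in the MDA-MB-468 libraries, with 1, 0 and 0 reads in those of SUM1315. No library of one line came near the other. The ratio of reads was 2950.2 (exact 95% interval 529 to 116556) in favor of MDA-MB-468 (adjusted p = 5.2e-08). The other 24 SUM1315 libraries held at most 3.9 on the adjusted scale. EPCAM, an epithelial cell adhesion molecule, read 3067, 2948 and 3026 in MDA-MB-468 against 2 reads in SUM1315. Its ratio of reads was 4590.4 (exact 95% interval 1270.5 to 37908). Both were 8-fold genes and lay apart in all 54 libraries.

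Of 40 adhesion and polarity genes, 37 were tested, with a median difference of -4.92 against -0.0258 for all genes tested. At 2-fold 25 were higher in MDA-MB-468 and 6 in SUM1315, beside 22.9% and 22.2% of all genes tested. The tight junction claudins belonged to the larger group: CLDN7 had 1 read in SUM1315 against 3820 in MDA-MB-468, and CLDN3 had none against 1983. At 8-fold, 22 members were higher in MDA-MB-468 and 5 in SUM1315. The latter included ITGA6 and ITGB4, the subunits of the α6β4 integrin, and the laminin chains LAMA3 and LAMB3, which anchor basal cells to the basement membrane. LAMB3 (chr1:209614870-209652425) read 1094, 1193 and 759.6 in SUM1315 and 2.1, 1.4 and 1.4 in MDA-MB-468 (difference 8.58 ± 0.25, adjusted p = 4.0e-08). ITGA6 read 1919, 2225 and 1679 in SUM1315 and 128, 119 and 127 in MDA-MB-468 (difference 3.94 ± 0.11, adjusted p = 4.0e-08). The differences were 3.81 ± 0.64 for LAMA3 and 3.37 ± 0.19 for ITGB4. For these 4 genes every SUM1315 library was above every MDA-MB-468 library, the opposite of CDH1, EPCAM and the claudins.

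Regulators of the epithelial state followed the junctions. All 30 listed transcription, splicing and trafficking genes were tested (median difference -6.11). At 2-fold 24 were higher in MDA-MB-468 and 1 in SUM1315, beside 22.9% and 22.2% of all genes tested. At 8-fold the counts were 21 and 1, beside 7.09% and 8.76%. GRHL2, a transcription factor that maintains epithelial genes, read 302, 299.99 and 289.9 in MDA-MB-468, with 0, 4 and 4 reads in SUM1315. ESRP1, which directs epithelial splicing, read 9.98, 5.2 and 8.3 in SUM1315 and 768, 742 and 725 in MDA-MB-468 (difference -6.44 ± 0.23, adjusted p = 1.0e-07). Low but nonzero reads of ESRP1 were present in each untreated SUM1315 library. ST14, the protease matriptase, and its inhibitor SPINT2 were both among the largest: ST14 had 3 reads in SUM1315 against 4963, and SPINT2 differed by -8.70 ± 0.55. MAL2, which carries proteins to the apical membrane, differed by -8.96 ± 0.20.

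The exception was TP63, the transcription factor of basal cells (chr3:189596746-189897276), which read 517, 577 and 339.6 in SUM1315 and 0.63, 0 and 2.4 in MDA-MB-468 (difference 8.05 ± 0.45, adjusted p = 1.1e-06). It was thus high in the line that lacked E-cadherin, and low in the line that held basal keratin 5.

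Promoters of 3 of the epithelial genes are shown because they hold the letters CAGGTG or CACCTG, both strands of 1 E-box that ZEB and SNAI proteins are known to bind. Each line gives the 120 bases before the RefSeq start (GRCh38.p14, sense strand of the gene), with each match in capitals. Windows of 250 bases before the start were searched on both strands, and these letters and genes were chosen after the promoters were seen.
S100A14: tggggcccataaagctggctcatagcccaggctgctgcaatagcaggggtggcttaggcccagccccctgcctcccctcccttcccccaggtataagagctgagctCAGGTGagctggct
AP1M2: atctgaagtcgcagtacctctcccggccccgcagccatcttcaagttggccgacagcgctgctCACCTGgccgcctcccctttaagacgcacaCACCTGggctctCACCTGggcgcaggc
RAB25: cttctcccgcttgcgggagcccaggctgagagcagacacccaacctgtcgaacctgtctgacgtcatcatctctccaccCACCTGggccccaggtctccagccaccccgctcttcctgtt
The windows are chr1:153616326-153616445 on the minus strand, chr19:10587313-10587432 on the minus strand and chr1:156061040-156061159 on the plus strand. S100A14 holds 1 match that begins 14 bases before the start, AP1M2 holds 3 that begin at 57, 27 and 15 bases, and RAB25 holds 1 at 41 bases. Among list members with a window, the motif was found in 14 of 24 adhesion genes (58.3%), 9 of 18 epithelial regulators (50%) and 4 of 26 mesenchymal genes (15.4%), beside 5635 of 27305 genes in all (20.6%). The lists held 40, 30 and 45 genes, and members without a window, CDH1 and EPCAM among them, were not searched. Members were counted whatever their call, so these shares do not bear on the difference between the lines. A match is a description of letters and not a binding site.

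The levels of these 3 genes differed by library as follows. S100A14, a calcium-binding protein of epithelial membranes, read 4.6, 1.1 and 2.1 in SUM1315 and 3918, 3808 and 3689 in MDA-MB-468 (difference -10.18 ± 0.32, adjusted p = 5.8e-08). AP1M2, a sorting adaptor of polarized cells, read 1.8, 1.0 and 2.1 in SUM1315 and 1119, 1187 and 1289 in MDA-MB-468 (difference -8.85 ± 0.22, adjusted p = 2.3e-08). RAB25, a trafficking GTPase of epithelial cells, had no read in SUM1315 and read 613, 579.9 and 547 in MDA-MB-468, at least 589-fold. In all 3 the groups were far apart, and RAB25 had no read in any of the 24 other SUM1315 libraries.

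Keratins, the intermediate filaments of epithelia, were called in both directions. KRT19, a luminal keratin (chr17:41523617-41528308), read 13496, 14508 and 13632 in MDA-MB-468, where it had 58402 reads, and had no read in SUM1315. That is at least 14091-fold (adjusted p = 8.1e-10), and on the log2(adjusted read count + 1) scale no gene tested differed more toward MDA-MB-468. In the 24 other SUM1315 libraries it reached at most 4.6. KRT8 read 35.2, 39.2 and 17.7 in SUM1315 and 668, 635 and 745 in MDA-MB-468 (difference -4.50 ± 0.27, adjusted p = 1.9e-06), while its filament partner KRT18 read 335, 358 and 370.2 in SUM1315 and 678, 584 and 651 in MDA-MB-468 (difference -0.84 ± 0.09, adjusted p = 6.7e-05). Both were lower in each SUM1315 library, KRT18 by less than 2-fold.

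Of 22 keratins, 17 were tested, with a median difference of -1.18. At least 2-fold higher were 9 in MDA-MB-468 and 4 in SUM1315, beside 22.9% and 22.2% of all genes tested. Basal KRT5 read 258, 247 and 272 in MDA-MB-468 and had 2 reads in SUM1315, a ratio of 394 (exact 95% interval 109 to 3258). KRT6B had no read in SUM1315, and KRT4 and KRT23 differed by -6.46 ± 0.27 and -4.28 ± 0.22. The 4 keratins higher in SUM1315 were KRT14, KRT16, KRT17 and KRT75. KRT17, of basal and stressed epithelium, read 1489.6, 1499.6 and 1613 in SUM1315 and 260.01, 249 and 248 in MDA-MB-468 (difference 2.60 ± 0.08, adjusted p = 4.6e-08). KRT75 differed by 3.90 ± 0.19, KRT16 by 1.84 ± 0.27 and KRT14, the usual partner of KRT5, by 1.78 ± 0.25. KRT14, KRT16 and KRT17 overlapped between the lines once the treated libraries were included, whereas KRT75 did not. Keratin genes have close copies, and reads that could belong to several were not resolved here.

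SUM1315 held the mesenchymal program. Vimentin, VIM (chr10:17228241-17237593), the filament of mesenchymal cells, read 11876, 12484 and 11574 in SUM1315 and 53.8, 35.6 and 16.5 in MDA-MB-468 (difference 8.51 ± 0.35, adjusted p = 2.2e-07). The lowest SUM1315 library was far above the highest of MDA-MB-468. CDH2, which encodes N-cadherin (chr18:27932879-28177130), read 513, 524 and 675 in SUM1315 and had no read in MDA-MB-468, at least 797-fold (adjusted p = 2.8e-08). The cadherins of the lines were thus exchanged, with 1 read of CDH1 in SUM1315 and none of CDH2 in MDA-MB-468.

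ZEB1, the repressor of epithelial genes (chr10:31318417-31529804), read 407, 447 and 544 in SUM1315 and had 3, 0 and 1 reads in MDA-MB-468 (difference 8.03 ± 0.42, adjusted p = 7.8e-07). Its relatives ZEB2 and SNAI2, named after their values were seen, had 668 and 353 reads in SUM1315 and none in MDA-MB-468. All 3 repressors were thus found in the SUM1315 libraries and were at most 4 reads in MDA-MB-468.

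Of 45 mesenchymal genes, 37 were tested, with a median of 3.94, or 4.2 with genes at 0 reads set to their limit. At least 2-fold higher were 27 in SUM1315 and 3 in MDA-MB-468, beside 22.2% and 22.9% of all genes tested. At 8-fold the counts were 22 and 1, beside 8.76% and 7.09%. FBN1, the microfibril protein fibrillin, had 2661 reads in SUM1315 and none in MDA-MB-468. NNMT, a methyltransferase abundant in mesenchymal cells, had a ratio of 5412 (exact 95% interval 971 to 213804). SPARC, a matrix-binding glycoprotein, read 1983, 2225 and 1479 in SUM1315 and 5.4, 1.3 and 0 in MDA-MB-468 (difference 9.58 ± 0.59). FN1, fibronectin, differed by 6.09 ± 0.18. The genes against this direction included CNN3, an actin-binding calponin (-4.39 ± 0.15), and CTGF, a matricellular growth factor (-2.52 ± 0.17).

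Matrix genes were the list with the highest median. Of 41 collagens and other matrix genes, 32 were tested (median 5.47, or 5.7 at the limits). At 2-fold 28 were higher in SUM1315 and 1 in MDA-MB-468, beside 22.2% and 22.9% of all genes tested. At 8-fold the counts were 20 and 1, beside 8.76% and 7.09%. COL5A1, a fibrillar collagen (chr9:134641803-134844843), read 1127, 1176 and 1227 in SUM1315 with 1 read in MDA-MB-468, a ratio of 4942 (exact 95% interval 886 to 195250.00). The collagen VI chains moved together: COL6A2 and COL6A3 had 1987 and 1650 reads in SUM1315 and none in MDA-MB-468, and COL6A1 differed by 9.02 ± 0.51. VCAN, the proteoglycan versican, had 1786 reads against none. COL17A1, a collagen of basal cell hemidesmosomes, read 437, 385 and 414 in SUM1315 and had no read in MDA-MB-468, at least 579-fold. It was higher in SUM1315, as were LAMA3, LAMB3, ITGA6 and ITGB4. LAMA4, a laminin chain of vessel walls, was the reverse, with 2.7, 4.1 and 2.1 in SUM1315 and 607, 562 and 546 in MDA-MB-468 (difference -7.21 ± 0.24, adjusted p = 7.0e-08).

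**Figure D3:**
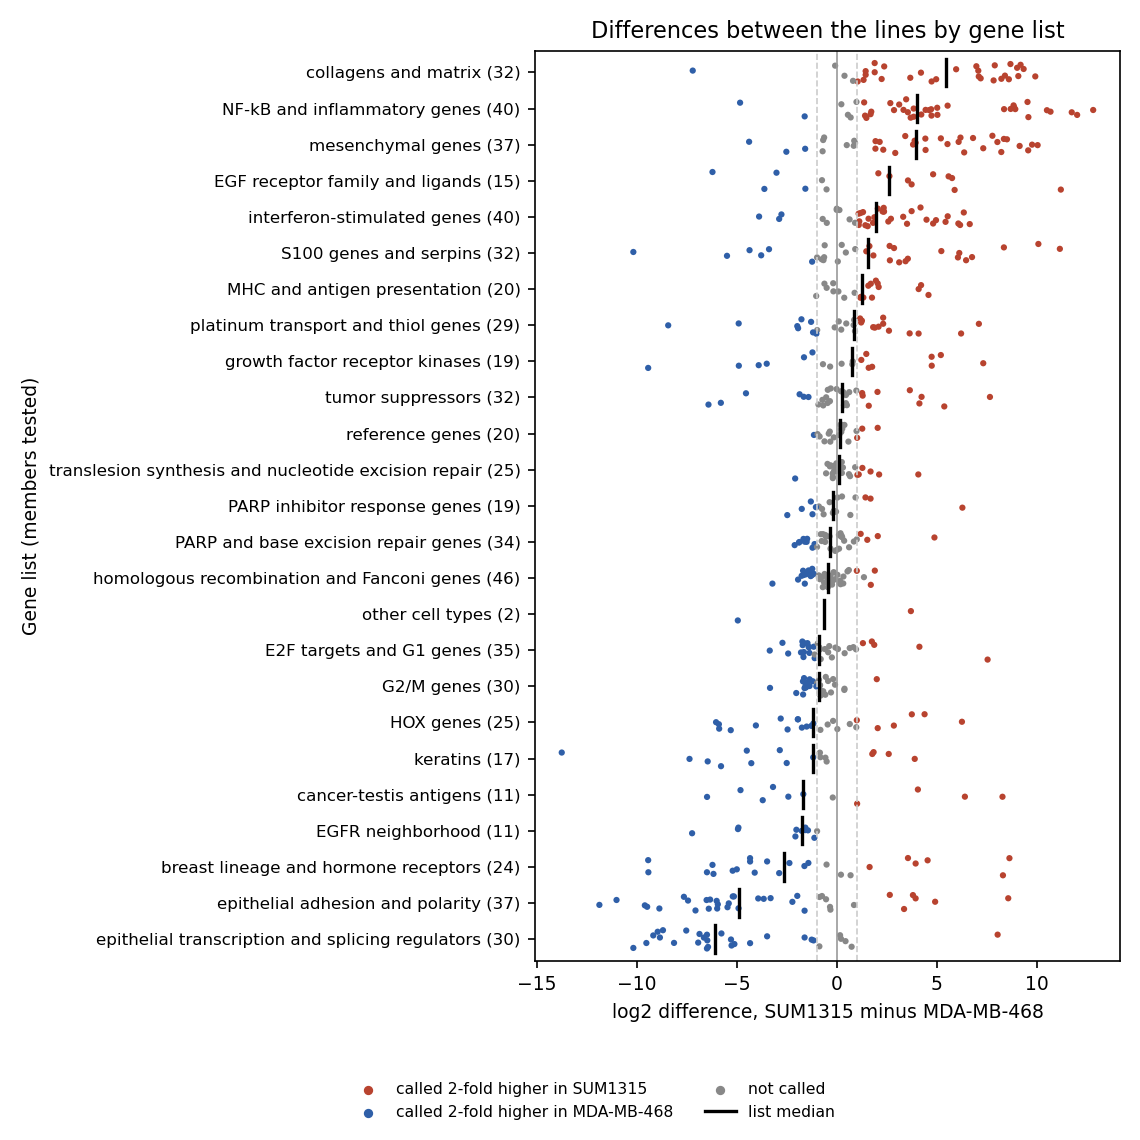
Log2 difference (SUM1315 minus MDA-MB-468, x axis) of each tested member of 25 gene lists (y axis, number tested in parentheses, ordered by median), with red points called at least 2-fold higher in SUM1315, blue points in MDA-MB-468, gray points not called and a black bar at each median. Medians run from -6.11 for the epithelial regulators to 5.47 for collagens and matrix, and the repair and cell cycle lists lie between -0.875 and 0.123.

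Breast lineage genes were mostly higher in MDA-MB-468. Of 30 such genes 24 were tested, with a median difference of -2.63. At least 2-fold higher were 15 in MDA-MB-468 and 6 in SUM1315, beside 22.9% and 22.2% of all genes tested. KIT, the receptor of luminal progenitor cells (chr4:54657957-54740715), read 985, 1020.3 and 1009 in MDA-MB-468 and had 0, 2 and 0 reads in SUM1315, a ratio of 1530.1 (exact 95% interval 423 to 12639). ELF5, the transcription factor of the alveolar lineage, had 3 reads in SUM1315 and 607 in MDA-MB-468. VGLL1, a TEAD cofactor, had 2895 in MDA-MB-468 and no read in any of the 27 SUM1315 libraries. None of these 3 genes had more than 3 reads in untreated SUM1315.

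At 8-fold, 11 lineage genes were higher in MDA-MB-468 and 5 in SUM1315, among them TBX2, TBX3, BCL11A and ERBB4. TBX2 (chr17:61399843-61409466), a T-box repressor, had a ratio of 966 (exact 95% interval 267 to 7982), and TBX3, which patterns the mammary bud, read 1026, 1092 and 953 in SUM1315 and 56.2, 78.8 and 63.3 in MDA-MB-468. BCL11A, a zinc finger factor, had 104 reads against 2, and ERBB4 had 41 against 1. TBX2 and TBX3 stayed apart in all 54 libraries, while BCL11A and ERBB4 overlapped once all 54 were included.

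Members of the EGF receptor family were called in both directions. EGFR, the receptor, was higher in MDA-MB-468, with 946, 955 and 963 in SUM1315 and 2855, 2739 and 2933 in MDA-MB-468 (difference -1.57 ± 0.07, adjusted p = 3.3e-07). ERBB3, its partner, read 5.4, 5.2 and 7.2 in SUM1315 and 511, 485 and 535 in MDA-MB-468 (difference -6.22 ± 0.19, adjusted p = 5.4e-08). Both receptors were above SUM1315 in each MDA-MB-468 library, while ERBB2 was not called and ERBB4 was higher in SUM1315.

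Several ligands were higher in SUM1315. EREG, epiregulin (chr4:74365145-74388749), read 3813, 4160.1 and 3478 in SUM1315 and 3.2, 0 and 0 in MDA-MB-468 (difference 11.21 ± 0.51, adjusted p = 3.7e-07). AREG, amphiregulin, read 605, 694 and 472 in SUM1315 and 21.3, 17.6 and 3.3 in MDA-MB-468 (difference 5.59 ± 0.56, adjusted p = 3.7e-05). HBEGF, a heparin-binding ligand, differed by 5.77 ± 0.42, and EPGN and NRG1, which encode epigen and neuregulin, had 178 and 89 reads in SUM1315 and none in MDA-MB-468. Against this, the ligands BTC (-3.62 ± 0.36) and EGF itself (-3.02 ± 0.48) were low-count genes higher in MDA-MB-468. All 15 members were tested, with a median difference of 2.63. At 2-fold 9 were higher in SUM1315 and 4 in MDA-MB-468, beside 22.2% and 22.9% of all genes tested. DUSP6, a phosphatase induced by ERK signaling, read 6849.7, 7715 and 5430.5 in SUM1315 and 36.00, 25.5 and 18.9 in MDA-MB-468 (difference 7.94 ± 0.23, adjusted p = 3.9e-08).

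Among 27 growth factor receptor kinases, 19 were tested, with a median difference of 0.777. At 2-fold 8 were higher in SUM1315 and 6 in MDA-MB-468, beside 22.2% and 22.9% of all genes tested. At 8-fold the counts were 4 and 4, beside 8.76% and 7.09%. AXL, a kinase common in mesenchymal cells, read 809.6, 767 and 850.1 in SUM1315 and 7.3, 6.6 and 1.0 in MDA-MB-468 (difference 7.33 ± 0.50, adjusted p = 3.4e-06). MET, the hepatocyte growth factor receptor, read 1191, 1027 and 1389.9 in SUM1315 and 39.9, 37.00 and 55.96 in MDA-MB-468 (difference 4.74 ± 0.18). The platelet-derived growth factor receptors PDGFRA (4.75 ± 0.21) and PDGFRB (172 reads against 3) were also higher in SUM1315. FGFR2 was higher in MDA-MB-468, with 229 reads against 3, but overlapped over all 54 libraries, at 0 to 22.98 in the 24 others of SUM1315 and 13.2 to 69.2 in those of MDA-MB-468.

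Inflammatory genes were among the most divided. NF-κB is a transcription factor family that switches on cytokines, chemokines and survival genes after danger signals, and in some tumor cells it is active without a stimulus. Of 45 NF-κB and inflammatory genes, 40 were tested, 34 were at least 2-fold higher in SUM1315 and 2 in MDA-MB-468 (median 4.04), and at 8-fold 27 and 1, beside 8.76% and 7.09% of all genes tested. CSF3, the granulocyte colony-stimulating factor (chr17:40015440-40017813), read 6719.8, 6832 and 8341 in SUM1315 and had no read in any of the 27 MDA-MB-468 libraries. The untreated libraries differed at least 10198-fold (adjusted p = 2.9e-09). CXCL8, the neutrophil chemokine IL-8, read 4340.1, 4702 and 3536 in SUM1315 and had no read in untreated MDA-MB-468, at least 5891-fold (adjusted p = 3.8e-09).

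In the 24 other MDA-MB-468 libraries CXCL8 reached 34.2, still below the lowest SUM1315 value of 1181. PTGS2, which makes prostaglandins, read 3343, 3231 and 3809 in SUM1315 and IL1B, interleukin-1β, read 1687, 2045 and 1311, each with no read in untreated MDA-MB-468. SAA1, an acute-phase protein, had a ratio of 4202 (exact 95% interval 1163 to 34706). The regulators of the pathway itself were also higher: BIRC3, an apoptosis inhibitor, read 554, 525 and 639 in SUM1315 and 33.3, 12.2 and 26.6 in MDA-MB-468 (difference 4.62 ± 0.33), TRAF1, a signaling adaptor, differed by 3.85 ± 0.48, and the chemokine CCL20 by 4.23 ± 0.58. The 2 members higher in MDA-MB-468 were TNFSF10, the death ligand TRAIL (-4.84 ± 0.31), and LCN2, lipocalin (-1.61 ± 0.25). For TNFSF10 all 54 libraries were apart.

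The chemokine genes CXCL8, CXCL1, CXCL3 and CXCL2 lie next to each other among the genes tested, within chr4:73740569-74099195, and all 4 were 8-fold genes. CXCL1 and CXCL3 were named for this position after their values were seen. Their promoters are shown because each holds the same 9 letters, GGAATTTCC, a known NF-κB recognition sequence. Each line gives the 120 bases before the RefSeq start (GRCh38.p14, sense strand of the gene), with the match in capitals.
CXCL8: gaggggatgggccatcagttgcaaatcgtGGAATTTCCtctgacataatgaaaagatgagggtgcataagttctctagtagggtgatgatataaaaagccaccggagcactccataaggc
CXCL1: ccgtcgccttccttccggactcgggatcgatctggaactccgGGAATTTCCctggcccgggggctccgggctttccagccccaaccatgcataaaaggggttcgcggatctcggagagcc
CXCL3: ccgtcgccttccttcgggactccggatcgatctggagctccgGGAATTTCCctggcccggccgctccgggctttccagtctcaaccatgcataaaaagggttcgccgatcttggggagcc
CXCL2: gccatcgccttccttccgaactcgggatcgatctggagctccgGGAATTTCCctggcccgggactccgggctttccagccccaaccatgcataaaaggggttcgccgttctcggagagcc
The windows are chr4:73740449-73740568 and chr4:73869273-73869392 on the plus strand and chr4:74038690-74038809 and chr4:74099196-74099315 on the minus strand. The match begins 91 bases before the start in CXCL8, 78 in CXCL1 and CXCL3 and 77 in CXCL2. With its reverse complement GGAAATTCC, it was in the 250-base windows of 9 of 34 listed inflammatory genes (26.5%) and of 137 of 27305 genes in all (0.502%), letters chosen after the promoters were seen. The broader κB consensus was in 14 of the 34 (41.2%) and in 6.28% of all. The list was of NF-κB and inflammatory genes, whatever their call, so these shares do not bear on the difference between the lines. A match here too is a description of letters and not a binding site. CXCL1, CXCL2 and CXCL3 are close copies of each other, visible in the printed lines, and reads shared among them were not resolved here.

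The 3 further chemokines of this group behaved alike by library. CXCL1 read 604, 702 and 423 in SUM1315 with 0, 0 and 1 reads in MDA-MB-468. CXCL2 read 1495, 1695 and 754 in SUM1315 and 0, 3.2 and 0 in MDA-MB-468 (difference 9.59 ± 0.58, adjusted p = 1.8e-06). CXCL3 read 1273, 1118 and 803 in SUM1315 and 3.0, 0 and 1.4 in MDA-MB-468 (difference 8.93 ± 0.47, adjusted p = 8.7e-07). Replicate 3 of SUM1315 was the lowest in all 4 chemokines, and even there each was well above every MDA-MB-468 library.

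Interferon-stimulated genes, the antiviral program downstream of STAT proteins, leaned to SUM1315 with smaller differences. Of 42 such genes 40 were tested, with a median difference of 1.97. At least 2-fold higher were 30 in SUM1315 and 3 in MDA-MB-468, beside 22.2% and 22.9% of all genes tested. At 8-fold the counts were 13 and 1, beside 8.76% and 7.09%. IFI16, a DNA sensor, read 1819, 1944 and 1772 in SUM1315 and 21.2, 24.3 and 10.01 in MDA-MB-468 (difference 6.65 ± 0.28, adjusted p = 2.7e-07). IFI44L, XAF1 and OAS2 had 246, 218 and 205 reads in SUM1315 and none in MDA-MB-468, while OASL and IFI44 differed by 5.55 ± 0.27 and 5.44 ± 0.50. The 3 exceptions were OAS1 (-3.89 ± 0.50), the regulator IRF7 (-2.88 ± 0.33) and the protease USP18 (-2.77 ± 0.50). Related antiviral synthetases therefore lay on both sides, OAS2 and OASL in SUM1315 and OAS1 in MDA-MB-468, and IFI44L, XAF1 and OAS1 overlapped between the lines in the treated libraries.

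Antigen presentation genes were higher in SUM1315 or not called. Of 27 genes 20 were tested, with a median difference of 1.27. At 2-fold 12 were higher in SUM1315 and none in MDA-MB-468, beside 22.2% and 22.9% of all genes tested. B2M, the light chain of class I molecules, read 20542, 22477 and 24712 in SUM1315 and 5251, 5747 and 5369 in MDA-MB-468 (difference 2.05 ± 0.11, adjusted p = 7.3e-07). The immunoproteasome subunit PSMB9 differed by 2.09 ± 0.14. ERAP2, which trims peptides for loading, read 143, 181 and 147 in SUM1315 and 7.9, 2.3 and 8.3 in MDA-MB-468 (difference 4.59 ± 0.40). CD274, which encodes PD-L1, read 66.00, 57.9 and 37.4 in SUM1315 and 0, 5.4 and 3.8 in MDA-MB-468 (difference 4.10 ± 0.65, adjusted p = 0.00058), and its relative PDCD1LG2 had 87 reads against 3.

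A few tumor suppressor genes were far lower in 1 line, some of them together with their neighbors. Of 33 genes 32 were tested, with a median difference of 0.265, and 17 were not called. At least 2-fold higher were 9 in SUM1315 and 6 in MDA-MB-468, beside 22.2% and 22.9% of all genes tested. At 8-fold the counts were 5 and 3, beside 8.76% and 7.09%. The 3 were CDKN2A, CDKN2B and MTAP, which lie side by side on chromosome 9. CDKN2A, which encodes the cell cycle inhibitor p16 (chr9:21967752-21995324), read 17.7, 39.1 and 16.6 in SUM1315 and 1379, 1279.8 and 1295 in MDA-MB-468 (difference -5.80 ± 0.29, adjusted p = 6.4e-07). MTAP, a methionine salvage enzyme (chr9:21802636-21941115), read 0, 6.2 and 4.1 in SUM1315 and 269.6, 297 and 284 in MDA-MB-468 (difference -6.42 ± 0.65, adjusted p = 3.9e-05). CDKN2B, the inhibitor p15, differed by -4.54 ± 0.37. All SUM1315 libraries were low for these genes.

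The 5 tested genes from MTAP to DMRTA1 (chr9:21802636-22455740) formed an unbroken run of 8-fold genes, with CDKN2B-AS1 at no read in SUM1315 and DMRTA1 at -3.35 ± 0.28. CDKN2B-AS1 is antisense to CDKN2B, and whether the counting used the strand is not given in the sources used here. The low reads of untreated SUM1315 were not shared by the olaparib-resistant derivatives: CDKN2A was at 0 in all 9 OlaR libraries of SUM1315 and at 7.3 to 24.5 in the 15 libraries of treated parental cells. MTAP stayed at or below 1.1 in the 24 other SUM1315 libraries, below 2 of the 3 untreated ones.

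The 8-fold tumor suppressors higher in SUM1315 were TUSC3, SMAD4, INPP4B, RB1 and CDKN1A. RB1, the retinoblastoma gene (chr13:48303751-48481890), read 182, 341 and 118 in SUM1315 and 8.8, 9.9 and 11.9 in MDA-MB-468 (difference 4.13 ± 0.37, adjusted p = 1.8e-05). LPAR6, a receptor gene that lies within an RB1 intron, had 109 reads in SUM1315 and none in MDA-MB-468, while ITM2B just before RB1 was higher in MDA-MB-468 (-1.37 ± 0.10) and RCBTB2 just after was still 2-fold higher in SUM1315 (1.61 ± 0.32). SMAD4, which carries TGF-β signals (chr18:51030213-51085042), read 202, 228 and 222 in SUM1315 and 2.4, 8.4 and 3.5 in MDA-MB-468 (difference 5.38 ± 0.37, adjusted p = 3.6e-06). Its neighbor ELAC1 had 43 reads in SUM1315 and 1 in MDA-MB-468. The flanking ME2 and MEX3C did not reach 2-fold (0.45 ± 0.15 and 0.43 ± 0.23). The 8-fold differences thus covered RB1 with LPAR6 and SMAD4 with ELAC1, and the next genes tested on both sides were below that limit.

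TUSC3, an oligosaccharide transferase subunit, read 454, 427 and 426 in SUM1315 and 0, 3.1 and 1.4 in MDA-MB-468 (difference 7.66 ± 0.47, adjusted p = 1.9e-06). INPP4B, a lipid phosphatase, differed by 4.24 ± 0.37 and CDKN1A, the cell cycle inhibitor p21, by 3.65 ± 0.22. GADD45A, a DNA damage response gene, was higher in SUM1315 (2.37 ± 0.12).

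**Figure D4:**
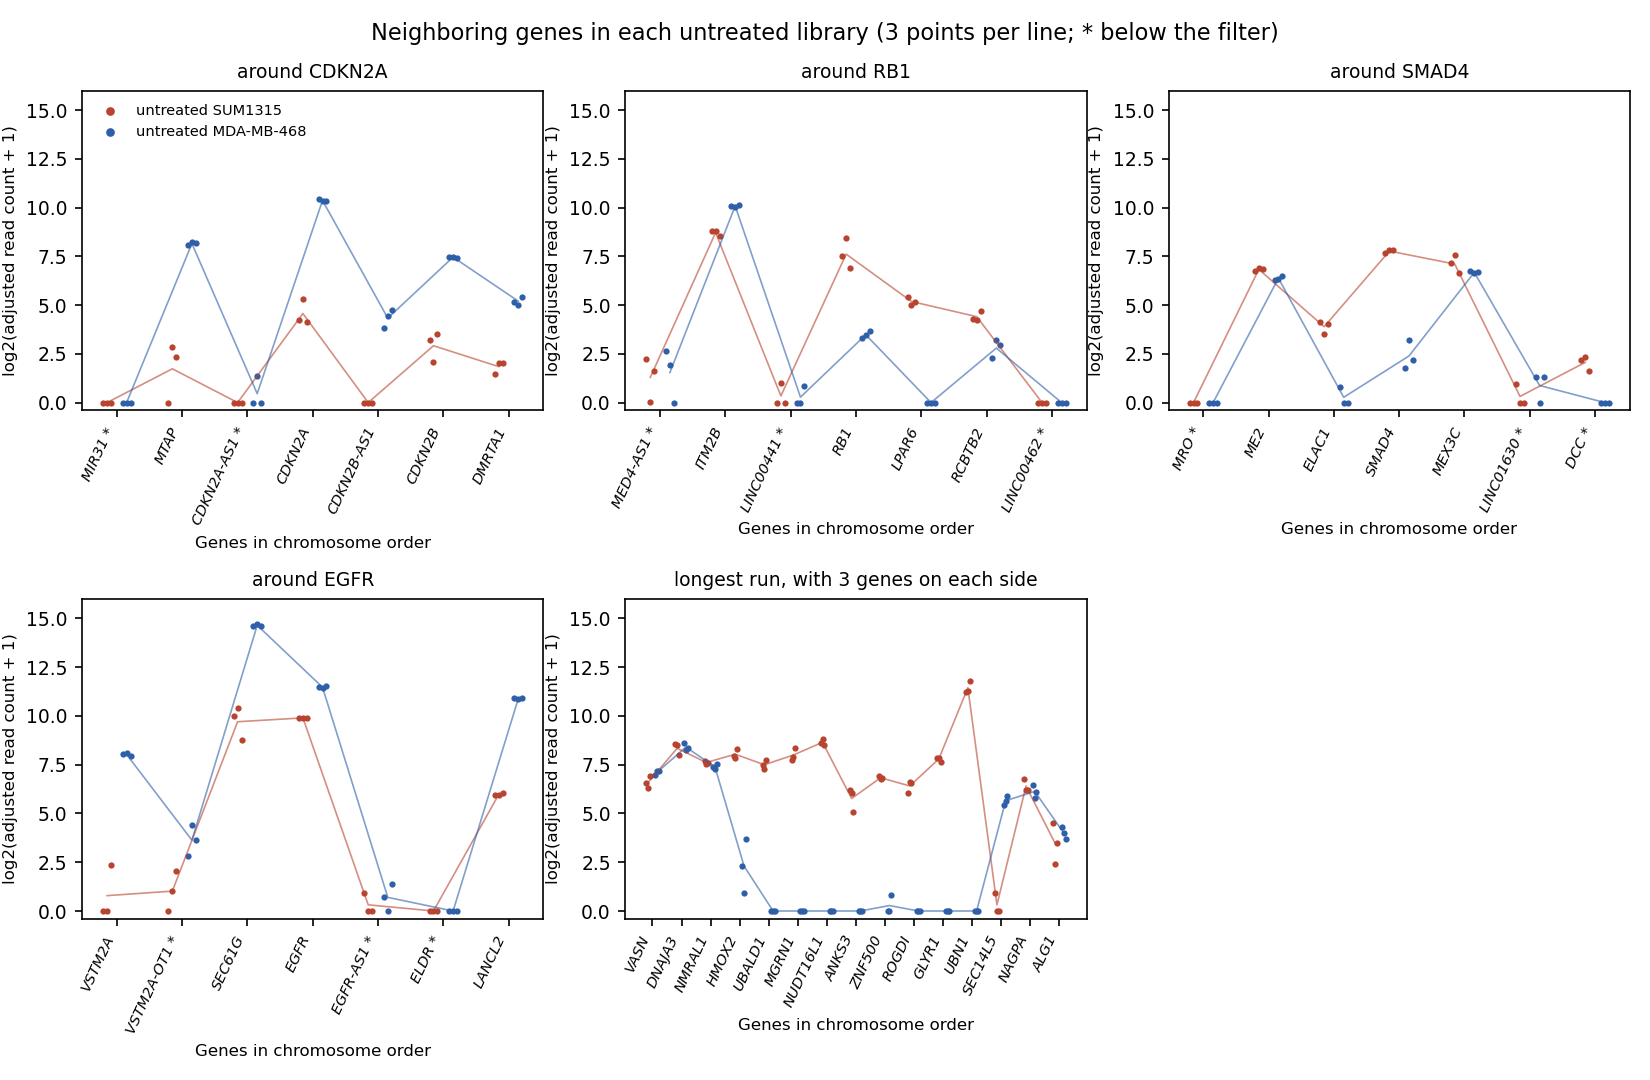
Level of each untreated library, as log2(adjusted read count + 1), for genes in chromosome order around CDKN2A, RB1, SMAD4 and EGFR and across the longest run of 8-fold genes, with 3 red points per gene for SUM1315 and 3 blue points for MDA-MB-468, lines joining the means, and a star on genes below the filter. SUM1315 is the lower line from MTAP to DMRTA1, MDA-MB-468 is the lower line at RB1 and LPAR6 and at SMAD4 and ELAC1 and near 0 from UBALD1 to UBN1, and the lines are close at ME2, MEX3C, NMRAL1 and NAGPA.

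The longest run of 8-fold genes was on chromosome 16, where 9 tested genes in a row from HMOX2 to UBN1 (chr16:4474736-4882401) were higher in SUM1315. UBN1, a subunit of a histone chaperone (chr16:4847481-4882401), read 2437, 2479 and 3598 in SUM1315 and had no read in MDA-MB-468, at least 3955-fold (adjusted p = 1.1e-08). The 9 genes had 13401 reads in untreated SUM1315 and 24 in untreated MDA-MB-468, of which 23 fell on HMOX2, a heme oxygenase at one end of the run. The 8 others, UBALD1, MGRN1, NUDT16L1, ANKS3, ZNF500, ROGDI, GLYR1 and UBN1, had 1 read in untreated MDA-MB-468. Over all 27 MDA-MB-468 libraries these 8 genes had 7 reads, against 70162 over the 27 of SUM1315.

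Of 5 further genes of the table inside this stretch, 3 had a read in untreated SUM1315 and none had one in MDA-MB-468. Just outside, the lines were alike on one side: NMRAL1 read 204, 186 and 194 in SUM1315 and 166, 152 and 182 in MDA-MB-468. On the other side SEC14L5 had 1, 0 and 0 reads in SUM1315 and 62, 69 and 78 in MDA-MB-468, and NAGPA beyond it read 109, 72.6 and 73.5 in SUM1315 and 87.2, 54.98 and 68.5 in MDA-MB-468. These flanking genes were chosen for their position after the run was seen. NMRAL1 and SEC14L5, the tested genes next to the run, were thus both present in MDA-MB-468.

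Runs of 3 or more 8-fold genes in 1 direction numbered 52 at 3 genes, 13 at 4, 4 at 5 and 2 at 6, besides the 1 of 9. One of 6 genes, toward MDA-MB-468, held the zinc finger genes ZNF253, ZNF93, ZNF682, ZNF90, ZNF486 and ZNF737 on chromosome 19 (chr19:19865830-20565781). ZNF93 had 179 reads in MDA-MB-468 and 2 in SUM1315, and ZNF682 differed by -4.78 ± 0.49. Zinc finger genes of this cluster are close copies, so reads may be shared among them. Another of 6, toward SUM1315, surrounded IFI16 on chromosome 1.

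Around EGFR, on chromosome 7, MDA-MB-468 was higher at nearly every gene, but by unequal amounts. Of 15 genes of this neighborhood 11 were tested, with a median difference of -1.75. At least 2-fold higher were 10 in MDA-MB-468 and none in SUM1315, beside 22.9% and 22.2% of all genes tested. SEC61G, a subunit of the protein translocation channel just before EGFR (chr7:54752253-54759211), read 1009, 1335 and 428 in SUM1315 and 25036, 26539 and 25427 in MDA-MB-468 (difference -4.94 ± 0.36, adjusted p = 4.9e-06). LANCL2, just after EGFR (chr7:55365337-55433737), read 60.1, 60.05 and 66.2 in SUM1315 and 1941, 1855 and 1931 in MDA-MB-468 (difference -4.92 ± 0.09, adjusted p = 9.2e-09). VSTM2A, beyond SEC61G, differed by -7.24 ± 0.59. EGFR itself (chr7:55019017-55211628) differed by -1.57 ± 0.07, less than either neighbor.

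Farther along, the differences were -1.44 ± 0.12 for VOPP1, -2.02 ± 0.09 for MRPS17, -2.07 ± 0.18 for NIPSNAP2, -1.75 ± 0.10 for PSPH, -1.12 ± 0.09 for CCT6A and -1.58 ± 0.17 for CHCHD2. SUMF2 was just below the 2-fold limit (-0.99 ± 0.37) and PHKG1 was below the filter. For all 10 genes called, the 27 MDA-MB-468 libraries all lay above the 27 of SUM1315. SEC61G was uneven in SUM1315, with replicate 3 lowest.

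Genes of homologous recombination, which repairs double-strand breaks and in which BRCA1 acts, differed by smaller amounts than the genes above. BRCA1 (chr17:43044295-43170327) read 201, 202 and 279 in SUM1315 and 315, 308 and 304 in MDA-MB-468 (difference -0.46 ± 0.14, adjusted p = 0.019). All 3 SUM1315 libraries were lower, by less than 2-fold, but leaving out any 1 library other than SUM1315 replicate 3 gave an adjusted p of 0.052 to 0.072. The read count does not show which allele the reads came from. BRCA2 read 148, 124 and 171 in SUM1315 and 488, 467 and 436 in MDA-MB-468 (difference -1.65 ± 0.13, adjusted p = 1.0e-05).

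Of 49 homologous recombination and Fanconi genes 46 were tested, 14 were at least 2-fold higher in MDA-MB-468 and 3 in SUM1315 (median -0.455), beside 22.9% and 22.2% of all genes tested. The exonuclease EXO1 was the 1 gene past 8-fold, with 36.3, 28.96 and 15.7 in SUM1315 and 292, 217 and 235 in MDA-MB-468 (difference -3.22 ± 0.30). The 24 other SUM1315 libraries all lay above the untreated ones, at 58.96 to 300.4, and overlapped the 24 others of MDA-MB-468, at 165 to 487. DNA2, a resection nuclease, differed by -1.94 ± 0.21, RAD51AP1 by -1.69 ± 0.10 and RAD54L by -1.76 ± 0.33. The 3 genes higher in SUM1315 act at the start of resection: RBBP8, which encodes CtIP (1.90 ± 0.12), RAD50 (1.70 ± 0.10) and MRE11 (1.00 ± 0.11). RBBP8 read 1229, 1089.9 and 1363 in SUM1315 and 326, 293 and 363 in MDA-MB-468, and all 54 libraries were apart.

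PARP1, the main target of olaparib (chr1:226360691-226408093), read 1082, 1037 and 1356 in SUM1315 and 1089, 1051 and 1063 in MDA-MB-468 (difference 0.11 ± 0.11, adjusted p = 0.40). Its direction turned under quantile normalization and without SUM1315 replicate 3, so none is given. PARP2 was higher in MDA-MB-468, with 156, 145 and 141 in SUM1315 and 566, 526 and 556 in MDA-MB-468 (difference -1.89 ± 0.10, adjusted p = 6.8e-07). PARP3 went the other way (2.05 ± 0.23). Of 36 PARP and base excision repair genes 34 were tested, with a median difference of -0.339. Of these, 9 were at least 2-fold higher in MDA-MB-468 and 4 in SUM1315, beside 22.9% and 22.2% of all genes tested. APLF, a histone chaperone of break repair that binds poly(ADP-ribose), was the 1 past 8-fold, with 67.04, 88.9 and 82.7 in SUM1315 and 2.0, 0 and 5.6 in MDA-MB-468 (difference 4.89 ± 0.61, adjusted p = 0.00013). FEN1 (-1.87 ± 0.27) and PCNA (-1.67 ± 0.13), which serve replication as well as repair, and the endonuclease APEX2 (-2.11 ± 0.18) were higher in MDA-MB-468. PCNA read 434, 390.1 and 304 in untreated SUM1315, below its 690.2 to 1914 in the 24 other libraries of that line.

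POLH, the translesion polymerase η, read 162, 149 and 207 in SUM1315 and 206, 181 and 176 in MDA-MB-468 (difference -0.13 ± 0.15, adjusted p = 0.46), and the values overlapped. Of 26 translesion and nucleotide excision repair genes 25 were tested, with a median difference of 0.123. Of these, 6 were at least 2-fold higher in SUM1315 and 1 in MDA-MB-468, beside 22.2% and 22.9% of all genes tested. ERCC4, which encodes the XPF nuclease needed to unhook platinum crosslinks (chr16:13920154-13952348), read 230.1, 232 and 209 in SUM1315 and 14.1, 8.7 and 14.9 in MDA-MB-468 (difference 4.08 ± 0.24, adjusted p = 1.4e-06). It was the 1 repair gene of this list past 8-fold and lay apart in all 54 libraries. The damage sensors XPC (1.10 ± 0.14) and DDB2 (1.28 ± 0.15) and the transcription-coupled factor UVSSA (2.12 ± 0.20) were higher in SUM1315, and UBE2A, which ubiquitinates PCNA, in MDA-MB-468 (-2.08 ± 0.17).

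Genes linked to PARP inhibitor response, transport and thiols held a few large differences. Of 21 PARP inhibitor response genes 19 were tested, with a median difference of -0.195. Of these, 3 were at least 2-fold higher in SUM1315 and 5 in MDA-MB-468, beside 22.2% and 22.9% of all genes tested. At 8-fold 1 was higher in SUM1315 and none in MDA-MB-468, beside 8.76% and 7.09%. ABCG2, an efflux pump (chr4:88090264-88231626), read 76.3, 85.8 and 69.4 in SUM1315 and had no read in MDA-MB-468, at least 108-fold. MAD2L2, the shieldin subunit REV7, read 571, 628 and 688 in SUM1315 and 196, 191 and 194 in MDA-MB-468 (difference 1.69 ± 0.10), and ZRANB3, a fork remodeler, differed by 1.43 ± 0.20. The 3 subunits of ribonuclease H2 were higher in MDA-MB-468: RNASEH2C differed by -2.48 ± 0.10, RNASEH2A by -1.75 ± 0.15 and RNASEH2B by -1.30 ± 0.14.

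Of 41 platinum transport and thiol genes 29 were tested, with a median difference of 0.868. Of these, 13 were at least 2-fold higher in SUM1315 and 8 in MDA-MB-468, beside 22.2% and 22.9% of all genes tested. The efflux pump ABCC2 read 74.6, 59.1 and 89.8 in SUM1315 and had no read in MDA-MB-468, ABCC3 read 523, 519 and 569 in SUM1315 and 36.99, 49.96 and 39.9 in MDA-MB-468 (difference 3.64 ± 0.15) and ABCC4 differed by 4.09 ± 0.26. Metallothioneins, which bind metals through thiols, divided by copy, with MT1E at 435 reads in SUM1315 and none in MDA-MB-468, and MT1F at none and 127. These 2 genes are close copies, and shared reads were not resolved here. Untreated SUM1315 was low for MT1E within its own line, with 92.4 to 168 against 1112 to 1677 in the 24 other libraries. GSTM3, a glutathione transferase (chr1:109733937-109741038), had 2, 0 and 0 reads in SUM1315 and read 527, 464 and 485 in MDA-MB-468, a ratio of 749.9 (exact 95% interval 207 to 6196).

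All 30 G2/M genes listed were tested, with a median difference of -0.875, and 16 were not called. At 2-fold 13 were higher in MDA-MB-468 and 1 in SUM1315, beside 22.9% and 22.2% of all genes tested. CDK1, the mitotic kinase, read 623, 507 and 439 in SUM1315 and 2211, 2182 and 1956 in MDA-MB-468 (difference -2.03 ± 0.13, adjusted p = 2.5e-06). CENPA, the centromeric histone, differed by -3.34 ± 0.23, and BIRC5, TTK and BUB1, of the spindle checkpoint and chromosomal passenger complex, by -1.69 ± 0.11, -1.69 ± 0.13 and -1.64 ± 0.14. The 1 exception was CDC25B, the phosphatase that activates CDK1 (2.00 ± 0.08). Untreated SUM1315 was low within its own line for several of these genes, with CENPA at 56.8, 65.1 and 34.3 against 103 to 226 in the 24 other libraries, and BUB1 at 180.1, 146 and 155 against 232 to 840.1. Both genes overlapped between the lines once all 54 libraries were included, as did BIRC5 and TTK.

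Of 36 E2F targets and G1 genes 35 were tested, with a median difference of -0.87. At least 2-fold higher were 15 in MDA-MB-468 and 5 in SUM1315, beside 22.9% and 22.2% of all genes tested. RRM2, of ribonucleotide reductase, read 303, 328 and 249 in SUM1315 and 1862, 1885 and 2029 in MDA-MB-468 (difference -2.72 ± 0.11, adjusted p = 2.2e-07). Both untreated groups were below the other libraries of their line, at 656 to 2461 in SUM1315 and 2636 to 6458 in MDA-MB-468. The E2F factors went separate ways, E2F8 (-3.35 ± 0.38) and E2F2 (-2.43 ± 0.18) higher in MDA-MB-468 and E2F7 (1.87 ± 0.17) in SUM1315. CCND2, cyclin D2, read 220.1, 247 and 209 in SUM1315 and had 1 read in MDA-MB-468, a ratio of 948 (exact 95% interval 169.5 to 37489). In the treated and OlaR SUM1315 libraries CCND2 was lower, at 4.7 to 154, narrowly apart from MDA-MB-468 at 0 to 4.5.

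HOX genes also differed, in both directions. In normal tissue they record where along the body axis a cell arose, and their pattern is often kept in culture. Whether the levels here reflect the origin of the lines was not tested. Of 43 HOX genes 25 were tested, with a median difference of -1.17. Of these, 13 were at least 2-fold higher in MDA-MB-468 and 6 in SUM1315, beside 22.9% and 22.2% of all genes tested. HOXB genes marked MDA-MB-468: HOXB4 read 1.8, 4.1 and 0 in SUM1315 and 154, 174 and 150.04 in MDA-MB-468 (difference -6.04 ± 0.53, adjusted p = 1.6e-05). HOXB2, HOXB3 and HOXB6 had 1, 2 and 1 reads in SUM1315 against 208, 392 and 316. The neighboring genes from HOXB2 to HOXB6 formed a run of 5 genes (chr17:48542655-48604986). The 3 HOX genes past 8-fold in SUM1315 were HOXD8 and HOXD11, with 231 and 61 reads against none, and HOXC8 (3.75 ± 0.18).

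Cancer-testis antigens, germ cell genes switched on in tumors, were expressed from few members in either line. Of 44 genes only 11 passed the filter, with a median difference of -1.68. At 2-fold 4 were higher in SUM1315 and 6 in MDA-MB-468, beside 22.2% and 22.9% of all genes tested. SPANXB1, of the sperm nucleus family, had 956 reads in SUM1315 and none in any of the 27 MDA-MB-468 libraries, although it has close copies. CT83 had 375 reads in MDA-MB-468 and none in any of the 27 SUM1315 libraries. DDX43 had 256 reads in SUM1315 against none, MAGEA1 differed by 4.06 ± 0.73 and XAGE2 by -4.82 ± 0.48, and PRAME had 83 reads in MDA-MB-468 against 3.

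Of 39 S100 and protease inhibitor genes 32 were tested, with a median difference of 1.55. At least 2-fold higher were 17 in SUM1315 and 6 in MDA-MB-468, beside 22.2% and 22.9% of all genes tested. TFPI2, a matrix-bound protease inhibitor (chr7:93885396-93890753), read 3778, 3679 and 3722 in SUM1315 with 0, 2 and 1 reads in MDA-MB-468, a ratio of 5231 (exact 95% interval 1789 to 25368). TIMP3, the metalloproteinase inhibitor of the matrix, read 13993, 13683 and 13531 in SUM1315 and 150.1, 162 and 150.3 in MDA-MB-468 (difference 6.47 ± 0.07, adjusted p = 1.6e-09). SERPINE2 differed by 10.08 ± 0.31, and SERPINA1, α1-antitrypsin, had a ratio of 558 (exact 95% interval 99.6 to 22100.00).

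Beyond the lists, TXNIP and LDHB, of glucose and lactate metabolism, had no read in untreated MDA-MB-468. TXNIP, which restrains glucose uptake and binds thioredoxin (chr1:145992435-145996579), read 8253, 9363 and 6410.03 in SUM1315, 24430 reads in all, and had no read in MDA-MB-468. That is at least 11251-fold (adjusted p = 2.9e-09), and the 24 other MDA-MB-468 libraries reached at most 3.5. LDHB, the lactate dehydrogenase chain that favors lactate use (chr12:21635342-21657842), read 4421, 4199.7 and 4788 in SUM1315 and had no read in MDA-MB-468, at least 6266-fold. The companion chain LDHA, named for comparison after its values were seen, read 2068, 2344 and 1704 in SUM1315 and 1085, 1031 and 1199.5 in MDA-MB-468 (difference 0.87 ± 0.12). FEZ1, known from axon growth, had a ratio of 14721 (exact 95% interval 5037 to 71386), BASP1, a membrane protein of growth cones, one of 7790.1 (exact 95% interval 2156 to 64333), and SMOC1, a calcium-binding matrix protein, one of 7376 (exact 95% interval 2524 to 35772). CCAT1, a long noncoding RNA of colon cancer, had 6445 reads in SUM1315 and none in MDA-MB-468.

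On the MDA-MB-468 side, RARRES1, a retinoid-responsive gene (chr3:158696892-158732457), read 4604, 4447 and 4516 and had no read in SUM1315, at least 4592-fold. CASP14, the caspase of skin cornification, had a ratio of 3585 (exact 95% interval 1227 to 17387), and KLK5, a skin kallikrein, had 5699 reads against none. IGFBP3, which binds insulin-like growth factors, differed by -9.98 ± 0.22. QPRT, of NAD synthesis, had a ratio of 5280.2 (exact 95% interval 947 to 208584), and the sulfur transferase TSTD1 differed by -9.80 ± 0.40. ALDH3B2, an aldehyde dehydrogenase, and LYNX1, a modulator of nicotinic receptors, had 4702 and 4385 reads against none. These 8 genes lay apart in all 54 libraries.

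Reference genes give the scale of difference between housekeeping transcripts. Of 20, each tested, 3 were at least 2-fold higher in SUM1315 and 1 in MDA-MB-468, beside 22.2% and 22.9% of all genes tested. None was called at 8-fold, and the median was 0.185. The 3 were B2M, TFRC, the transferrin receptor (1.27 ± 0.17), and EEF1A1, an elongation factor with many processed copies (1.02 ± 0.14). The other was YWHAZ, a 14-3-3 protein (-1.14 ± 0.09). GAPDH, a glycolytic enzyme, read 13742, 14516 and 18708 in SUM1315 and 13531, 13339.9 and 13600.3 in MDA-MB-468 (difference 0.20 ± 0.13, adjusted p = 0.20), and its direction turned under quantile normalization. TBP, of the basal transcription machinery, read 121, 128 and 113 in SUM1315 and 139, 114 and 152 in MDA-MB-468 (adjusted p = 0.40). Neither was shown to differ between the lines.

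**Figure D5:**
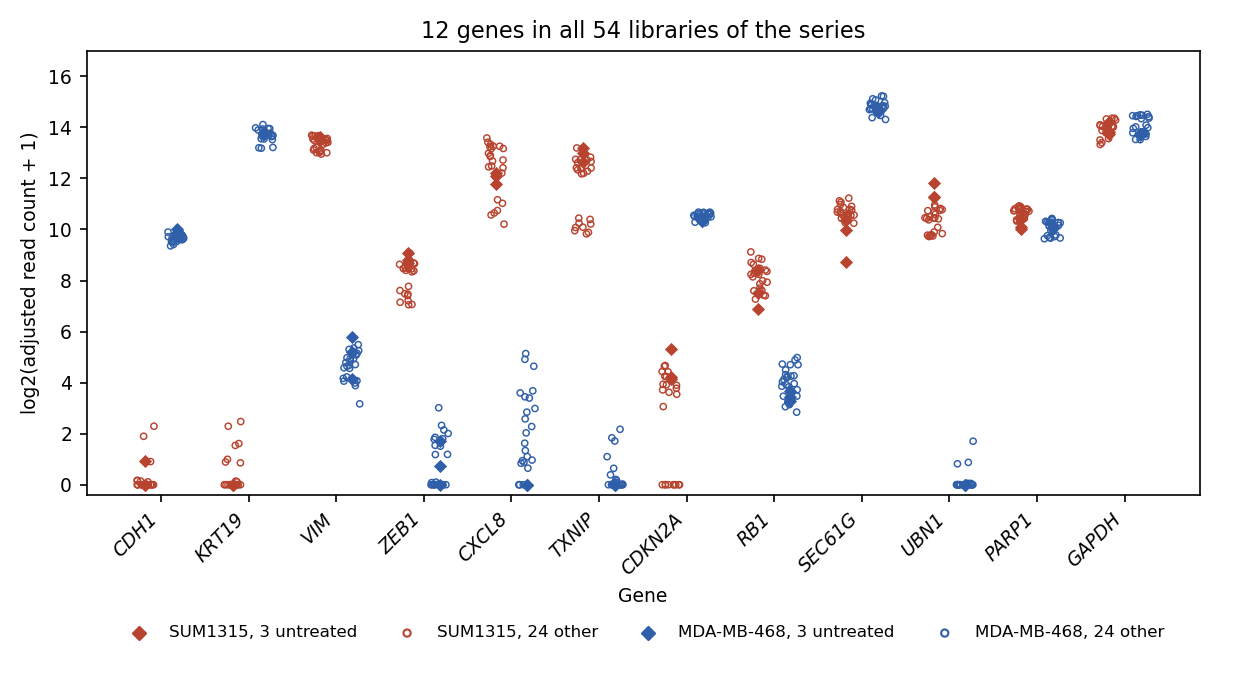
Level of 12 genes as log2(adjusted read count + 1) in all 54 libraries, with filled diamonds for the 3 untreated libraries and open circles for the 24 others of SUM1315 (red) and MDA-MB-468 (blue). The lines stay apart for the first 10 genes in every library, CDKN2A falls to 0 in 9 SUM1315 libraries, and PARP1 and GAPDH overlap. CXCL8 is at 23.95 to 34.2 in the 3 MDA-MB-468 OlaR libraries given 2.5 µM cisplatin.

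Levels within a line moved across the series. TXNIP ranged from 908 to 9358 in the 24 other SUM1315 libraries, with its 9 lowest values in the OlaR derivative. CXCL8 ranged from 1181 to 12265 there, and ZEB1 from 132 to 538. In the same 24 other libraries of each line VIM was at 7929 to 13246 in SUM1315 and 8.0 to 43.8 in MDA-MB-468, and CDH1 was at 654 to 953 in MDA-MB-468. The order of the lines was the same in all 54 libraries for CDH1, KRT19, VIM, ZEB1, CXCL8, TXNIP, CDKN2A, RB1, SEC61G and UBN1.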

How the data were processed

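Total RNA of each sample was made into 3′ mRNA libraries with a kit that reads the end of each transcript in the forward direction, and sequenced with single reads. The submitters' processing notes name CASAVA 1.8.2, FastQC, STAR, HTSeq and edgeR and the build hg38. The deposited signal values are read counts that the authors had set to a common library size with edgeR, separately in each condition. Whole reads were recovered from them exactly, within a relative tolerance of 1e-05, for 100.0% of values in all 54 libraries, which held 2070301 to 9268162 reads. Batches of 27 multiplexed libraries were not resolved, and whether counting used the strand or how shared reads were assigned is not given in the sources used here. Row names changed into dates by a spreadsheet (27 genes) were kept in the fit and not named.

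Differences were tested with limma 3.58.1 in R 4.3.3 (intensity trend, two-sided) on log2(adjusted read count + 1) of the 6 untreated libraries, with Benjamini-Hochberg adjustment over the 12882 genes with at least 10 in at least 3 libraries. This scale understates the change of low genes. Calls needed an adjusted p of at most 0.05 and a log2 difference of at least 1, or of at least 3 with no overlap between the lines. Limits and ratios of folds used reads divided by each line's effective library size, with a floor of 3 reads per line, and their exact 95% intervals and floors cover counting error only. The procedure was also run on simulated counts. There few genes were changed and none was set silent in 1 line, unlike in these libraries. That run therefore does not bear on genes with no read in a line. Alternatives included edgeR 4.0.16 and DESeq2 1.42.0 on the recovered reads, and scaling, filter, pseudocount and left-out libraries.

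Named genes were the 12 with the largest 8-fold difference in each direction and a mean of at least 100 in the higher line, up to 6 with the largest difference in each list among its 2-fold calls, any member of the lists used as checks, a set of markers and repair genes, and the neighbors of RB1, SMAD4, CDKN2A and EGFR. Members that went against the rest of a list, further endothelial markers, KRT16, KRT75, ZEB2, SNAI2, CXCL1, CXCL3, LDHA and the genes beside the chromosome 16 run were chosen after their values were seen. Some genes that the rule selects are not reported here. The comparison, the lists and the rules were chosen with earlier results of these data known. Positions, promoters and 25192 current and 1225 older gene names came from RefSeq on GRCh38.p14, and 1053 names were unmatched. Python 3.11.15 with pandas 2.3.3, numpy 2.4.6 and scipy 1.17.1 made the summaries.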

Additional observations from a re-analysis of the deposited data

How the results depend on the processing

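The 2-fold counts (2859 higher in SUM1315, 2954 in MDA-MB-468) and the 8-fold counts (1128 and 913) stayed within 1.5 times under every alternative run except a test against the fold limit itself. That test gave 1916 genes in MDA-MB-468 at 2-fold and 557 at 8-fold, beside 2030 and 805 in SUM1315. Without a filter the 2-fold counts were 4212 and 3460. DESeq2 gave 2981 and 2814, edgeR with TMM 2945 and 2854 and quantile normalization 2785 and 3030, so the line with more 2-fold calls was not the same in every alternative. No gene called in the main comparison changed sign under any alternative. Leaving out 1 library gave 2836 to 2869 and 2862 to 3022 at 2-fold and 1123 to 1137 and 905 to 920 at 8-fold. Replicate numbers did not pair the samples, since deviations of same-numbered libraries correlated at -0.0043, 0.0090 and -0.024, and with the replicate block the counts were 2864, 2966, 1128 and 913. No call that the text gives was lost under the block other than that of ME2, which was under 2-fold (adjusted p = 0.056).

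Of 226 genes named and tested, 182 kept their direction and their side of the adjusted p limit of 0.05 under every alternative run for them. These were up to 18, the test against a fold limit being run only for genes called at that limit. Another 42 changed side under at least 1, and 2 turned. Whether each gene stayed past its fold limit was not counted here. With a pseudocount of 5, 802 of the 1128 and 610 of the 913 8-fold genes were still called at 8-fold. PARP1 was at -0.0499 under quantile normalization and between -0.0112 (without SUM1315 replicate 3) and 0.1819 (without SUM1315 replicate 2) when 1 library was left out, and GAPDH at -0.0812 under quantile normalization. The cause was not tested. All 25 list medians kept their sign, an alternative added after seeing the data. Depth limits the folds of genes with no read in 1 line, which are lower limits, and with 1 line per BRCA1 status no difference can be assigned to that status.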
